A study of Mus musculus with 3 samples.

Results

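The 84 genes described here carry the names of proteins of the cytosolic ribosome in the mouse, out of 23393 genes in the table. They were chosen by name, as symbols made of Rpl or Rps, a number and at most a short suffix, together with Rplp0, Rplp1, Rplp2 and Rpsa. Of these, 51 belong to the large subunit by name and 33 to the small subunit. The naming takes in related genes too, such as Rpl7l1, an assembly factor, and Rps4y2, which RefSeq annotates as a transcribed pseudogene. RNA was profiled in 3 sorted bone marrow populations of C57BL/6 mice, with 1 library each, and the level of a gene is its normalized count. GFP+ HSCs and GFP- HSCs are hematopoietic stem cells of the LSK gate (lineage-negative, Sca-1-positive, c-Kit-positive) that were CD48-negative and CD150-positive, labelled Map17-GFP+ and Map17-GFP-. MPPs, the multipotent progenitors that lie downstream of stem cells, came from the LSK gate as CD48-positive, CD150-negative cells labelled Map17-GFP-. Map17 is another name of Pdzk1ip1. All 3 labels name the Map17-GFP reporter, and they give neither age nor the number of animals or cells pooled. Each population was sequenced once, so the spread among replicates is unknown and differences are described without a test.

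A ribosome joins a small subunit, which reads the messenger RNA, to a large subunit, which forms the peptide bonds. Each subunit is a core of ribosomal RNA covered by many small basic proteins, nearly all present in a single copy per ribosome, so cells make them in matched amounts. Their messenger RNAs are among the most abundant in growing cells, and most begin with a run of pyrimidines, the terminal oligopyrimidine tract, through which the kinase mTOR and the binding protein Larp1 control their translation. Adult HSCs are known for a low rate of protein synthesis compared with progenitors. In humans, loss of a single copy of many of these genes causes Diamond-Blackfan anaemia, a failure of red cell production.

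The sort markers went the way of the gates. Slamf1, which encodes CD150, stood at 2219 in GFP+ HSCs, 2144 in GFP- HSCs and 17 in MPPs, and Cd48 at 64, 168 and 7744. Pdzk1ip1 stood at 5659 in GFP+ HSCs, 3673 in GFP- HSCs and 290 in MPPs, so the transcript was not restricted to the GFP+ fraction. The levels of all genes summed to between 25311805 and 26689660 after the authors' scaling, and the sequencing depth is unknown. The depth and the cell number cannot be separated from the levels, and fewer cells of a kind and less RNA per cell cannot be told apart in such libraries.

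Most ribosomal protein genes had their lowest level in GFP+ HSCs and their highest in MPPs. Their 84 levels summed to 132291 in GFP+ HSCs, 150820 in GFP- HSCs and 211899 in MPPs, which is 0.523%, 0.594% and 0.794% of all levels. Of the 84, 68 had a mean of at least 50 over the 3 libraries and were compared, 40 of the large and 28 of the small subunit. Ratios are log2 of (level + 5) in both libraries, so they understate differences of low genes. In 52 of the 68 the level was lowest in GFP+ HSCs, intermediate in GFP- HSCs and highest in MPPs, an order that 32.5% of all 11951 compared genes show. The opposite order held for 5 genes, Rpl7l1, Rpl12, Rps4y2, Rps12 and Rps13, against 33.8% of all compared genes. The other 11 followed neither order. The 3 comparisons share libraries in pairs, so their values are given side by side and not as independent results.

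**Figure D1:**
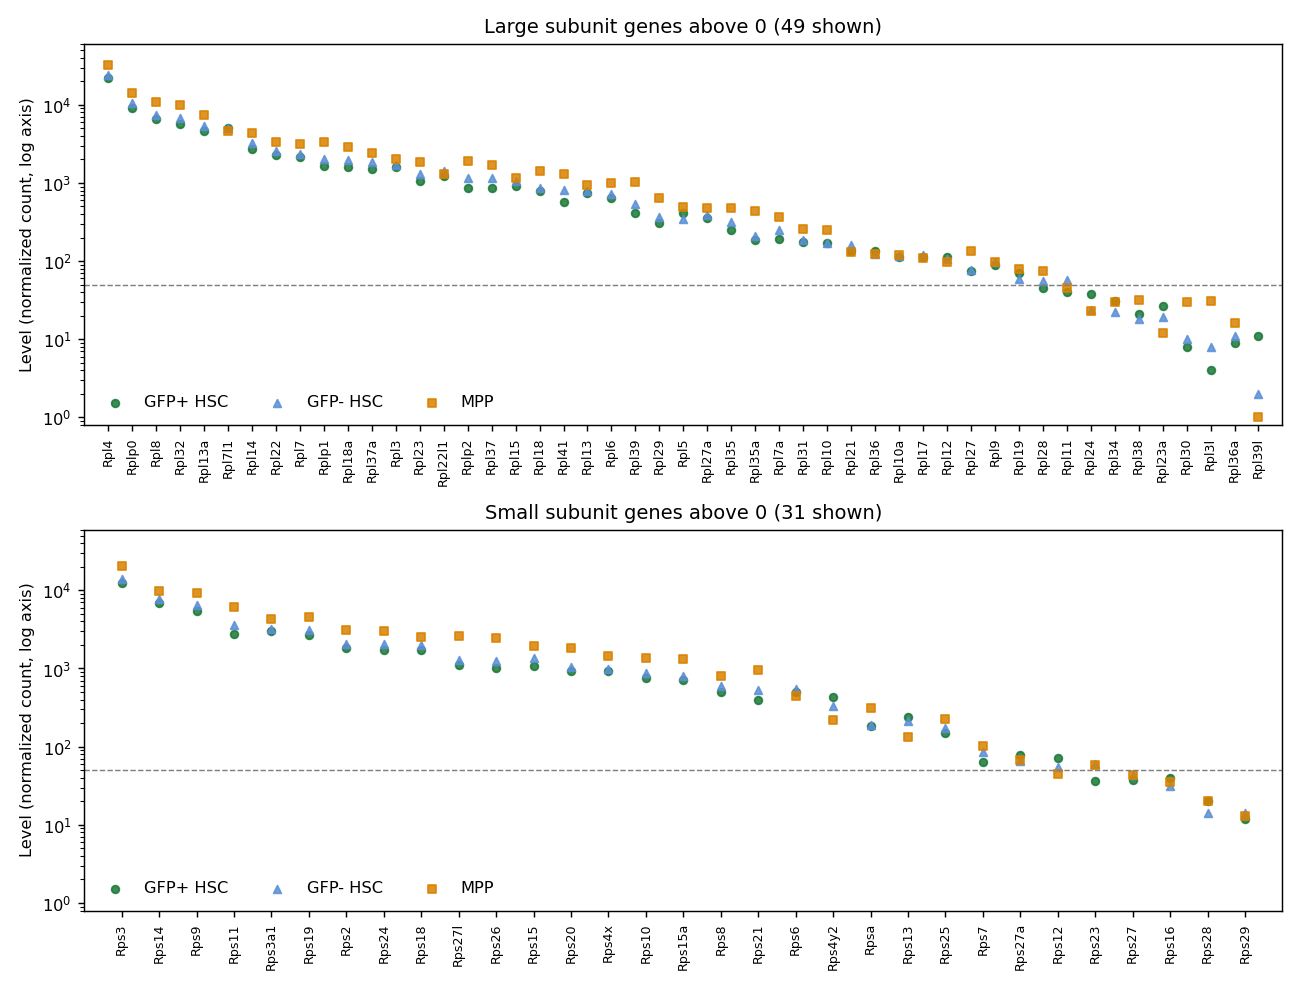
Level of ribosomal protein genes above 0 (normalized count, log axis) in GFP+ HSCs, GFP- HSCs and MPPs, with 1 library per population, the large subunit above and the small subunit below, ordered by mean level. The dashed line marks a mean of 50; most genes above it have their highest point in MPPs, and levels run from 1 for Rpl39l to 32681 for Rpl4.

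The reporter divides cells of the same stem cell gate, and GFP+ HSCs were set against GFP- HSCs to describe that division. Of the 68 genes, 58 were lower in GFP+ HSCs, 9 were higher and 1, Rpl10, had the same level of 168 in both. Among all compared genes 47.8% were lower and 51.7% higher. The median log2 ratio was -0.19 (1.14-fold lower), against 0.01 over all compared genes. At least 20% lower on that scale were 11 of the 68, against 8.95% of all compared genes, and at least 25% higher were 2, against 9.66%; both steps are the same size as a ratio. None of the 68 was 2-fold apart, against 0.87% of all compared genes that were 2-fold lower and 0.41% that were 2-fold higher. The shift was thus small for each gene and ran in the same direction in most.

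The genes farthest down in GFP+ HSCs came from both subunits. Rps23, a protein of the decoding centre, stood at 36 in GFP+ HSCs and 60 in GFP- HSCs, close to the lower limit for comparison. Rpl41, the smallest ribosomal protein, had levels of 569 in the GFP+ and 808 in the GFP- fraction (log2 ratio -0.50). Rpl37 followed at 850 and 1172 (-0.46), Rplp2 at 851 and 1156 (-0.44) and Rps21 at 397 and 534 (-0.42). These last 4 had higher levels still in MPPs, at 1318, 1720, 1912 and 960. At the other end stood genes with levels of at most 430 in either fraction. Rps4y2 had 430 in GFP+ and 330 in GFP- HSCs (0.38), Rps12 had 72 and 55 (0.36), and Rpl19 had 71 and 59 (0.25). Rpl5 was higher at 414 and 348 (0.25), and Rps27a, made as a fusion with ubiquitin, at 79 and 66 (0.24).

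GFP- HSCs were set against MPPs to compare the stem cell gate with the progenitor gate with both labelled Map17-GFP-. Of the 68 genes, 56 were lower in GFP- HSCs, 10 were higher and 2, Rpl9 and Rpl36, were equal at 98 and 125. Among all compared genes 50.6% were lower and 49.2% higher. The median log2 ratio was -0.47 (1.38-fold lower), against -0.01 over all compared genes. At least 20% lower were 48 of the 68, against 26.0% of all compared genes, and at least 25% higher were 2, Rps13 and Rps4y2, against 28.8%. Of the 68, only Rpl35a was 2-fold lower, at 207 in GFP- HSCs and 437 in MPPs (log2 ratio -1.06), where 5.53% of all compared genes were 2-fold lower. Next came Rps27l at 1301 and 2600, Rps26 at 1265 and 2487 (-0.97), Rpl39 at 545 and 1024 (-0.90) and Rps21 at 534 and 960 (-0.84). Rps26 sits at the exit of the messenger RNA channel and Rpl39 in the tunnel through which the new protein leaves. The genes higher in GFP- HSCs included Rps13 at 213 and 131 (0.68) and Rps4y2 at 330 and 217 (0.59). Rps6, the ribosomal protein phosphorylated by S6 kinases downstream of mTOR, stood at 554 in GFP- HSCs and 443 in MPPs (0.32). Rpl21 stood at 160 and 131 (0.28) and Rps12 at 55 and 45 (0.26). Removing the trend of the ratio on level over all genes turned Rpl21 to -0.088 and Rps12 to -0.52.

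Between GFP+ HSCs and MPPs, the ratio was below 0 for 58 of the 68 genes and above 0 for 10, where 49.2% of all compared genes were lower and 50.7% higher. The median log2 ratio was -0.67 (1.59-fold lower), against 0.01 over all compared genes. At least 20% lower were 53 (against 29.7% of all compared genes) and at least 2-fold lower 11 (against 8.61%). At least 25% higher were 3 (against 32.3%). Rpl39 stood at 412 in GFP+ HSCs and 1024 in MPPs (log2 ratio -1.30), Rps26 at 1005 and 2487 (-1.30), and Rps21 at 397 and 960 (-1.26). Rps27l followed at 1100 and 2600 (-1.24) and Rpl35a at 185 and 437 (-1.22). The highest ratios belonged to Rps4y2 at 430 and 217 (0.97), Rps13 at 237 and 131 (0.83) and Rps12 at 72 and 45 (0.62), then Rps27a at 79 and 67 (0.22) and Rpl12 at 113 and 98 (0.20). Removing the trend of the ratio on level over all genes turned Rps12 to -0.0836, Rps27a to -0.40 and Rpl12 to -0.30. Rps4y2, the transcribed pseudogene, is now called Rps4l and lies on chromosome 6.

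**Figure D2:**
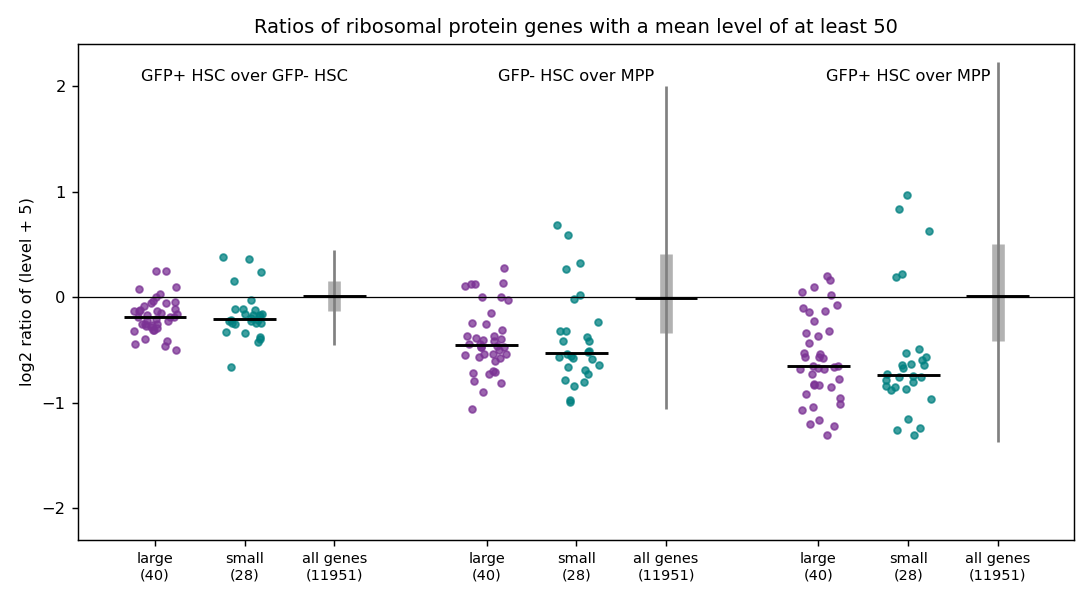
Log2 ratio of (level + 5) for ribosomal protein genes with a mean of at least 50, by subunit, in 3 comparisons of 1 library each; points are genes, black lines are medians, and the grey bars give the range between quartiles (thick) and the 5th to 95th percentile (thin) of all 11951 compared genes. The medians of both subunits lie below 0 in each comparison, at -0.19 and -0.21, -0.46 and -0.53, and -0.65 and -0.74 for large and small.

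Windows of 250 bases before to 50 bases after the annotated transcription start were at hand for 63 of the 84 genes, in 75 windows, from RefSeq (GRCm38.p6). A run of at least 8 pyrimidines (C or T) on the coding strand, within 50 bases of the start on either side, stood in 58 of the 75 windows (77.3%), against 35.7% of all 32851 windows and 32.5% of those of compared genes. Stretches of 60 bases before to 20 bases after the start are shown for 11 genes, with every run of at least 8 pyrimidines in the stretch in capitals, also where it lies farther out. They are the gene with the highest level per kilobase, then the 4 genes with the lowest and the 4 with the highest ratio in GFP+ HSCs against MPPs that have a window, and the related genes Rpl22 and Rpl22l1.
Rpl4, chr9:64173327-64173406, plus strand: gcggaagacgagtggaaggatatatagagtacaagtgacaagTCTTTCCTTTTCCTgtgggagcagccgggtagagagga
Rpl39, chrX:37085203-37085282, minus strand: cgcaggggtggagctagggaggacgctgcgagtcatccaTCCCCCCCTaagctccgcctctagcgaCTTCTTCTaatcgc
Rps26, chr10:128626487-128626566, minus strand: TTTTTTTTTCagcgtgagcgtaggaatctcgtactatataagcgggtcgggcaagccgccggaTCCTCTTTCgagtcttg
Rps21, chr2:180257319-180257398, plus strand: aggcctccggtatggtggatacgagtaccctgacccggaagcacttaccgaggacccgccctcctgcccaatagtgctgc
Rps27l, chr9:66946026-66946105, plus strand: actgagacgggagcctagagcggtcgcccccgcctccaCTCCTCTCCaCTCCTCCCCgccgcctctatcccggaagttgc
Rps13, chr7:116334171-116334250, minus strand: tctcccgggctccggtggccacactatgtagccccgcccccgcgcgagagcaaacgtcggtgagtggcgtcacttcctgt
Rps12, chr10:23787190-23787269, minus strand: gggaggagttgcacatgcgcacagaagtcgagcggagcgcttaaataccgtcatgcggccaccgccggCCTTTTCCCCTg
Rpl12, chr2:32961652-32961731, plus strand: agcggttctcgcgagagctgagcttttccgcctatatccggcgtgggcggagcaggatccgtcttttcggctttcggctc
Rps6, chr4:86857348-86857427, minus strand: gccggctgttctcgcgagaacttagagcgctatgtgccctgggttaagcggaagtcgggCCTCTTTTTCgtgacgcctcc
Rpl22, chr4:152325666-152325745, plus strand: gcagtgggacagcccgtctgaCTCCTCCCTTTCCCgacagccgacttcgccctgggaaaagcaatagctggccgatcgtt
Rpl22l1, chr3:28805448-28805527, plus strand: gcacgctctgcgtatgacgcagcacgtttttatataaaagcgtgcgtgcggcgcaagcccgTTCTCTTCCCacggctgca
In Rps6 a run spans the annotated start, in Rpl22l1, Rps26, Rpl39 and Rps12 a run follows it, and in Rpl4, Rpl39, Rps26, Rps27l and Rpl22 runs precede it. The stretches of Rps21, Rps13 and Rpl12 hold no run of that length. Rps21 and Rpl12 have a run outside the bases shown, within 50 bases of a start, and count among the genes with a run. Rps13 does not.

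Other short motifs were searched in the same 300-base windows, on both strands. CCGGAAG, the core that ETS factors bind, stood in 27 of the 75 windows (36.0%), against 8.86% of all windows and 17.7% of the windows of the 11951 compared genes. AAGATGGC, a YY1-type motif, stood in 8 windows (10.7%), against 2.75% of all and 4.41% of the compared. CACGTG stood in 8 (10.7%), against 7.15% of all and 10.2% of the compared, and TATAAA in 7 (9.33%), against 13.6% of all and 6.94% of the compared, so CACGTG was near the share of the compared genes and TATAAA lay between both shares. CCGGAAG and AAGATGGC share letters at their ends and can overlap, and CCGGAAG on the opposite strand can overlap a pyrimidine run. A match describes the letters only. Of the 51 compared genes with a window, the 21 with CCGGAAG had median log2 ratios of -0.22 in GFP+ against GFP- HSCs, -0.55 in GFP- HSCs against MPPs and -0.75 in GFP+ HSCs against MPPs. The 30 without it had -0.16, -0.46 and -0.66. The 43 genes with a pyrimidine run had medians of -0.21, -0.47 and -0.67, and the 8 without a run -0.11, -0.47 and -0.65. In GFP+ against GFP- HSCs 38 of the 43 and 6 of the 8 were lower. The gap between the medians of that comparison rests on only 8 genes without a run and was not tested.

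The large and the small subunit had similar ratios. In GFP+ against GFP- HSCs the median log2 ratio was -0.19 for 40 large subunit genes (34 lower) and -0.21 for 28 small subunit genes (24 lower). In GFP- HSCs against MPPs it was -0.46 (33 lower) and -0.53 (23 lower), and in GFP+ HSCs against MPPs -0.65 (35 lower) and -0.74 (23 lower). The large subunit median therefore lay above that of the small subunit by 0.02, 0.07 and 0.08. The summed levels of large over small subunit genes stood at 1.42 in GFP+ HSCs, 1.39 in GFP- HSCs and 1.29 in MPPs. With a minimum mean of 10 in place of 50, the difference in GFP- HSCs against MPPs turned to -0.0263 and that in GFP+ against GFP- HSCs to -0.00981. These differences are small beside the range among genes of either subunit, and no error can be put on them.

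The P stalk recruits the elongation factors to the large subunit, and its 3 genes were lower in HSCs at both steps. Rplp0, the base of the stalk, stood at 9063 in GFP+ HSCs, 10452 in GFP- HSCs and 14241 in MPPs. Rplp1 stood at 1629, 2026 and 3353, and Rplp2 at 851, 1156 and 1912. The log2 ratio in GFP+ HSCs against MPPs was -0.65 for Rplp0, -1.04 for Rplp1 and -1.16 for Rplp2, so the ratio of the base lay closer to 0 than those of the dimer that sits on it. Their transcripts differ in length, at 1358, 499 and 964 bases. With the trend of the ratio on length over all genes removed, the ratios in GFP+ against GFP- HSCs were -0.17, -0.13 and -0.36. Rplp1 then lay closer to 0 than Rplp0. The part of length in the contrast was not tested. Rpl5 and Rpl11 bind Mdm2 together with the small RNA of the large subunit when ribosome assembly fails. Rpl5 stood at 414 in GFP+ HSCs, 348 in GFP- HSCs and 486 in MPPs. It ran apart from the stalk between the HSC fractions only. In GFP- HSCs against MPPs its log2 ratio was -0.48, near that of Rplp0 at -0.45. Rpl11 stood at 40, 58 and 45, under the limit for comparison. Only 6.16% of the Rpl5 transcript and 37.8% of the Rpl11 transcript are distinct from other loci.

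Several genes have a paralog or another related gene, and levels per kilobase of transcript were used to compare partners. The shares describe RNA levels and do not show which protein is used. Rpl22l1 stood at 1211 in GFP+ HSCs, 1421 in GFP- HSCs and 1302 in MPPs, while Rpl22, whose protein is known in mice to repress Rpl22l1, stood at 2297, 2580 and 3335. Per kilobase, Rpl22l1 made up 31.2% of the pair in GFP+ HSCs, 32.1% in GFP- HSCs and 25.1% in MPPs. Rpl7l1, a factor of large subunit assembly related to Rpl7, was slightly higher in HSCs, at 5111, 5005 and 4561, whereas Rpl7 stood at 2127, 2365 and 3154. Its share of the pair per kilobase was 51.7% in GFP+ HSCs, 48.6% in GFP- HSCs and 39.2% in MPPs. In both pairs the share of the paralog was thus higher in HSCs than in MPPs.

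Rps27l, known as a p53 target, stood at 1100 in GFP+ HSCs, 1301 in GFP- HSCs and 2600 in MPPs, and Rps27 at 37, 43 and 43. Only 1.35% of the Rps27 transcript is distinct from other loci, so this pair cannot be compared by level. The shares of the other pairs carry the same limit in part, since 14.4% of the words of Rpl3, 27.8% of Rps4x, 34.4% of Rpl22l1 and 46.7% of Rpl7 are unique. Rps4x, the X-linked gene of a further pair, stood at 926 in GFP+ HSCs, 999 in GFP- HSCs and 1453 in MPPs. Per kilobase, Rps4y2, the transcribed pseudogene, made up 36.5% of that pair in GFP+ HSCs, 29.0% in GFP- HSCs and 15.6% in MPPs. The tissue-restricted paralogs were near the bottom of the scale. Rpl3l, known from heart and skeletal muscle, stood at 4 in GFP+ HSCs, 8 in GFP- HSCs and 31 in MPPs, which is 0.242%, 0.457% and 1.48% of its pair with Rpl3 (1617, 1711 and 2023) per kilobase. Rpl39l, known from the testis, stood at 11, 2 and 1, which is 1.99%, 0.278% and 0.0742% of its pair with Rpl39. Rpl10l, which replaces Rpl10 in male germ cells, was listed at 0 in all libraries, and Rpl10 stood at 168, 168 and 253.

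The genes on the X chromosome are Rpl10, Rpl36a, Rpl39 and Rps4x. Rpl36a stood at 9 in GFP+ HSCs, 11 in GFP- HSCs and 16 in MPPs, and the other 3 had their highest level in MPPs, as given above. Xist, the RNA of the inactive X chromosome, stood at 3087, 6137 and 2262, highest in GFP- HSCs. The part of this in the X-linked values was not tested.

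Of the 20 genes whose human counterparts are known from Diamond-Blackfan anaemia, 14 passed the filter on the mean. All 14 had a lower level in GFP+ HSCs than in MPPs, 12 of them by at least 20%, with a median log2 ratio of -0.82. Of all 68 ribosomal protein genes compared, 58 were lower there, 53 by at least 20%, with a median of -0.67, and of all compared genes 49.2% were lower, 29.7% by at least 20%. In GFP- HSCs against MPPs 13 of 14 were lower, with a median of -0.60, and Rpl9 was equal. Of the 68, 56 were lower in that comparison, with a median of -0.47, and of all compared genes 50.6%. In GFP+ against GFP- HSCs 13 of 14 were lower, with a median of -0.18. This was close to the median of the 68, at -0.19 with 58 lower, and 47.8% of all compared genes were lower. Rpl5 was the exception among the 14 in GFP+ against GFP- HSCs, and Rps7 was lowest, at 64 in GFP+ and 86 in GFP- HSCs. Rps19, the gene most often affected in patients, stood at 2664, 3122 and 4586. The 6 others had means under 50, among them Rpl26, which was listed at 0 in all libraries.

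Although ribosomes hold these proteins in matched amounts, the levels were far from equal. Per kilobase of transcript, the 82 genes above 0 ran from 2.91 to 14299 in GFP+ HSCs, from 2.48 to 15584 in GFP- HSCs and from 1.24 to 21249 in MPPs. The medians were 523, 544 and 840. High mean levels per kilobase belonged to Rpl4 (17044), Rpl32 (14358), Rps14 (13681) and Rpl8 (9726). The lowest were Rpl39l (5.80), Rpl3l (10.4), Rpl36a (24.8), Rpl30 (28.1) and Rps16 (31.9). Of these only the paralogs Rpl39l and Rpl3l are tissue-restricted, and Rpl36a, Rpl30 and Rps16 are general ribosomal proteins. Rps14, at 6939 in GFP+ HSCs, 7814 in GFP- HSCs and 9750 in MPPs, lies in the human region lost in the 5q- syndrome.

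The other genes under the filter were mostly general ribosomal proteins too. Besides Rpl10l and Rpl26 at 0, 14 genes had means under 50. Among them are Rpl3l, Rpl11, Rpl23a, Rpl24, Rpl30, Rpl34, Rpl36a, Rpl38, Rpl39l, Rps16, Rps27, Rps28 and Rps29. Rpl23a stood at 27 in GFP+ HSCs, 19 in GFP- HSCs and 12 in MPPs, Rpl24 at 38, 24 and 23, and Rpl30 at 8, 10 and 30. Rpl34 stood at 31, 22 and 30, Rpl38 at 21, 18 and 32, and Rps16 at 40, 31 and 35. Rps28 stood at 20, 14 and 20, and Rps29 at 12, 14 and 13. On the same scale Rpl39l was more than 2-fold higher in GFP+ than in GFP- HSCs (log2 ratio 1.19), and Rpl30 (-1.22) and Rpl3l (-1.47) more than 2-fold lower in GFP- HSCs than in MPPs. At such levels the order of the populations differed from gene to gene, and 7 of the 14 were lower and 7 higher in GFP+ than in GFP- HSCs. Nearest to the limit of 50, Rps27 and Rpl11 lay just below it, and Rps23 (36, 60 and 59) and Rps12 (72, 55 and 45) just above.

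Ribosomal protein genes have left many processed copies in the mouse genome, and reads that match a copy equally well are commonly dropped or divided in counting. How the authors treated such reads is not given in the sources used here. For each gene the share of all 50-base words of its GENCODE M21 transcript that occur in no other locus was computed as a measure of how much can be told apart. The median share was 47.2% for the 84 genes, against 100% for all compared genes with a transcript. Under 50% lay 46 of the 84 (54.8%), against 2.68% of all compared genes. A word was shared with an annotated pseudogene in 81 of the 84, with a median of 9 such loci per gene and up to 120 for Rpl7a. The counts of these genes are therefore uncertain, and a low level need not mean a scarce transcript.

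Levels and ratios both went with that share. The 38 genes with at least 50% of their words unique had a median mean level of 1673 per kilobase, and the 46 below it 225. Of the 38, 33 were compared, and 30 of these were lower in GFP+ than in GFP- HSCs, with a median log2 ratio of -0.23. The same number, 30 of 33, was lower in GFP- HSCs than in MPPs (median -0.54) and in GFP+ HSCs than in MPPs (median -0.78). Of the 46, 35 were compared, and their medians were -0.13, -0.39 and -0.57, with 28, 26 and 28 lower. Rps13 (17.0% unique), Rps12 (9.89%), Rps6 (15.4%), Rps27a (28.1%) and Rpl5 (6.16%) ran against the rest in all or part of the comparisons. They are poorly told apart from their copies. Rps4y2 (82.0%) and Rpl7l1 (90.8%) are not. With 100-base words the medians in GFP+ HSCs against MPPs were -0.76 for the 42 compared genes with at least 50% unique and -0.36 for the 26 others. Rps3, at 12496 in GFP+ HSCs, 13983 in GFP- HSCs and 20681 in MPPs, has more than 90% unique, and its log2 ratio in GFP+ HSCs against MPPs was -0.73.

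**Figure D3:**
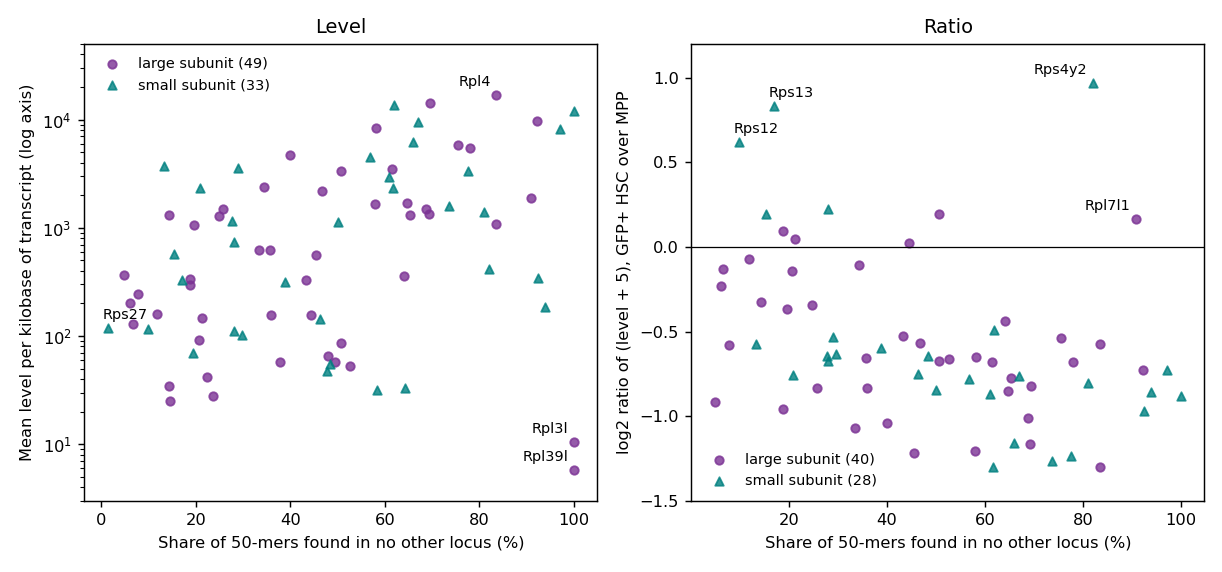
Share of 50-base words of each transcript found in no other locus (%), against the mean level per kilobase of transcript (left, log axis, genes above 0) and against the log2 ratio of (level + 5) in GFP+ HSCs over MPPs (right, genes with a mean of at least 50), with 1 point per gene. Genes with at least 50% unique have a median level of 1673 per kilobase and the others 225, and the ratios above 0 lie mostly at low shares, with Rps4y2, Rpl7l1 and Rpl12 at 50% or more.

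Transcript length moved with the ratios as well. Ribosomal protein transcripts are short, with a median of 778 bases against 2814 over all compared genes. Of the 796 other compared genes under 1000 bases, 68.3% were lower in GFP+ than in GFP- HSCs, with a median log2 ratio of -0.11. In GFP- HSCs against MPPs their median was -0.27, and in GFP+ HSCs against MPPs -0.36. The 49 ribosomal protein genes of that length had medians of -0.22, -0.51 and -0.67 in the same comparisons. They were thus lower than other short genes, by less than they were lower than all genes. With the trend of the ratio on length removed over all genes, the medians of the 68 genes were -0.10, -0.25 and -0.36, with 51 in place of 58 lower in GFP+ than in GFP- HSCs. Rpl22 then turned to 0.0198 in GFP+ against GFP- HSCs, 0.00566 in GFP- HSCs against MPPs and 0.00534 in GFP+ HSCs against MPPs. The part of library preparation or RNA quality in this trend was not tested. Among ribosomal protein genes of 1000 to under 2000 bases, 15 in number, the medians were -0.19, -0.45 and -0.66, where 2691 other genes of that length had -0.02, -0.12 and -0.14.

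**Figure D4:**
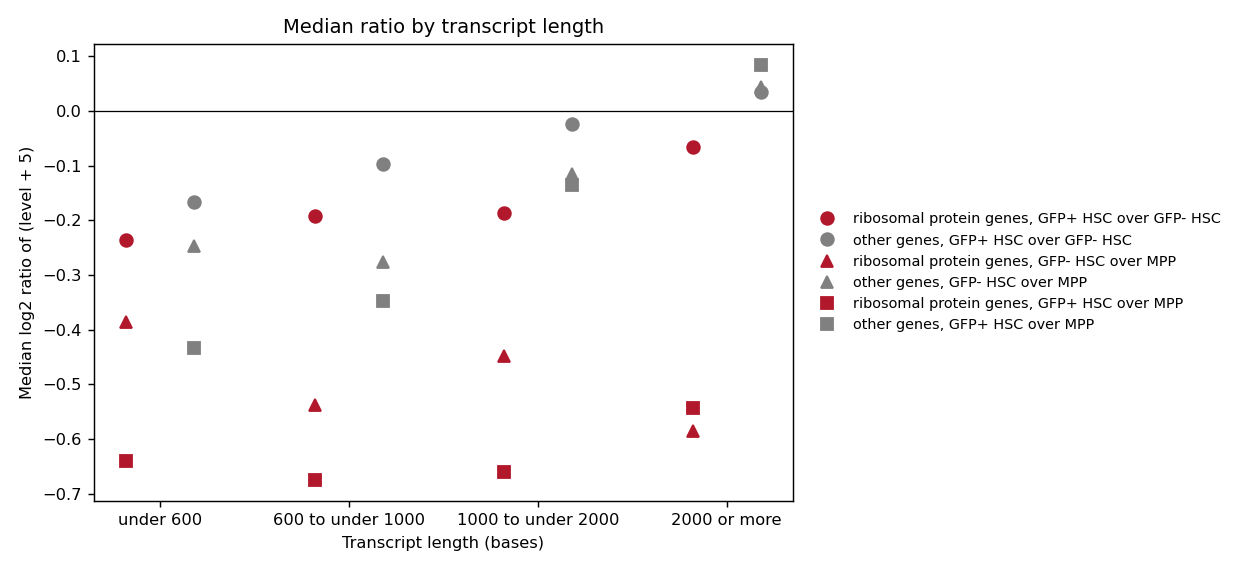
Median log2 ratio of (level + 5) for ribosomal protein genes and for all other compared genes in 4 classes of transcript length (bases), in 3 comparisons of 1 library each. Both sets lie below 0 among transcripts under 2000 bases, and ribosomal protein genes lie below the other genes in each class, for example at -0.64 against -0.43 under 600 bases in GFP+ HSCs over MPPs. The class of 2000 bases or more holds only 4 ribosomal protein genes, of which 50% were lower in GFP+ than in GFP- HSCs.

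Ratios also differed by abundance, among all compared genes as well. The 9 with a mean of at least 5000 were lower in all 3 comparisons without exception, with medians of -0.21, -0.51 and -0.73. Among them are Rpl4, Rpl8, Rpl13a, Rpl32, Rplp0, Rps3, Rps9 and Rps14. Rpl4, the most abundant, stood at 21992 in GFP+ HSCs, 23968 in GFP- HSCs and 32681 in MPPs. All 1020 genes of that abundance had medians of -0.02, -0.15 and -0.16, with 56.1%, 63.7% and 61.2% lower. Of the 34 with means of 500 to under 5000, 33 were lower in GFP+ than in GFP- HSCs, the exception being Rpl7l1, and 32 had a lower level in GFP+ HSCs than in MPPs, the others being Rpl7l1 and Rps6. Of all 7628 genes of that abundance, 48.8% and 52.3% were lower in these comparisons. The 25 from 50 to under 500 were mixed, with 16 lower and 8 higher in GFP+ than in GFP- HSCs. Of all 3303 genes at that level, 43.1% were lower there. The 25 had medians of -0.05, -0.31 and -0.44 in the 3 comparisons, where the 3303 had 0.06, 0.26 and 0.29. In the comparisons with MPPs the 25 thus also lay below genes of like abundance.

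A few ribosomal protein genes carry other names. Rpl36al, an expressed copy of Rpl36a, stood at 282 in GFP+ HSCs, 408 in GFP- HSCs and 774 in MPPs, with log2 ratios of -0.53 at the first step and -0.92 at the second. Fau, which encodes a ribosomal protein fused to a ubiquitin-like domain, stood at 22, 26 and 23. Rps19-ps3, a pseudogene, stood at 5, 8 and 9.

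Genes that serve ribosome production mostly had lower levels in HSCs too, with medians closer to 0. The lists were chosen with earlier results of these libraries known. Of 16 genes of ribosomal RNA synthesis, 12 were lower in GFP+ than in GFP- HSCs and 14 in GFP- HSCs than in MPPs, with medians of -0.10 and -0.19. Polr1d, a subunit of RNA polymerases I and III, stood at 987 in GFP+ HSCs, 1148 in GFP- HSCs and 1579 in MPPs, while Rrn3, an initiation factor, stood at 2765, 2751 and 2421. Taf1a and Taf1d, subunits of the factor that places polymerase I on its promoter, stood at 498, 409 and 719 and at 1388, 1736 and 2026. Of 42 ribosome assembly genes, 37 were lower at either step, with medians of -0.11 and -0.30, and 4 and 20 were at least 20% lower. Of all compared genes, 47.8% and 50.6% were lower at these steps and 8.95% and 26.0% at least 20% lower, so the 4 are near the share of all genes. Nhp2, a protein of the RNA-modifying H/ACA particles, stood at 1486, 1738 and 3345, and Fbl, the methyltransferase fibrillarin, at 336, 429 and 571. Sbds, which frees new large subunits for use, was higher in both HSC fractions than in MPPs, at 2255, 2294 and 1910. So was the kinase gene Riok3, at 4083, 3922 and 3454.

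Of all compared genes, 47.8% were lower in GFP+ than in GFP- HSCs and 50.6% in GFP- HSCs than in MPPs. Of 13 chaperones and importers of ribosomal proteins, 9 were lower at the first of these steps and 12 at the second. The exception at the second step was Tsr2, the chaperone of Rps26, at 2102 in GFP+ HSCs, 1950 in GFP- HSCs and 1396 in MPPs, whereas its client Rps26 stood at 1005, 1265 and 2487. Nap1l1 was lower, at 2331, 2909 and 3933, as was the importin gene Ipo7 against MPPs, at 1773, 1769 and 2937. Of 13 regulators, 10 were lower in GFP+ than in GFP- HSCs and 9 in GFP- HSCs than in MPPs, with medians near 0, at -0.05 and -0.10. Eif4ebp2, a repressor of translation under mTOR, stood at 753, 1253 and 1489. Myc, which drives ribosome production, stood at 16129, 15568 and 20946, and Tsc1 and Tsc2, inhibitors of mTOR signalling, at 1904, 1732 and 1533 and at 4386, 3812 and 4433. Tial1, an RNA-binding protein of stress granules, stood at 1506, 1630 and 1401.

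Proliferation and marker levels moved between the same libraries. All 20 replication and mitosis genes were lower at both steps, with medians of -0.58 and -1.03, summing to 79831 in GFP+ HSCs, 112034 in GFP- HSCs and 203531 in MPPs. Of all compared genes, 47.8% were lower at the first step and 50.6% at the second. Cdk1, the kinase that starts mitosis, stood at 1135, 1994 and 4673, the checkpoint kinase gene Bub1 at 894, 1487 and 4041, and Pcna, the sliding clamp of replication, at 1735, 2141 and 3010. The 6 neutrophil genes summed to 1837, 1259 and 16746, nearly all of the last from Elane (425, 557 and 16125). Of the 6, 5 were higher in GFP+ than in GFP- HSCs, against 51.7% of all compared genes. Ngp stood at 499, 165 and 94 and Ltf at 323, 165 and 86. The 4 monocyte and macrophage genes summed to 6313, 6109 and 9407, mostly Lyz2 (6173, 5986 and 6797), with Csf1r at 64, 57 and 1666 and Ccr2 at 24, 38 and 845. The 5 B cell genes summed to 896, 765 and 1298, mostly Cd79b (870, 749 and 1109), with Pax5 and Ms4a1 at 0 in both HSC libraries. The 5 T and NK cell genes summed to 371, 401 and 1821, nearly all Lck (370, 399 and 1784), with Cd3e, Cd3g and Ncr1 at 0 in both HSC libraries. The 4 erythroid genes summed to 331, 484 and 290, with Hba-a1 at 0 in all and Klf1 at 152, 333 and 220. The 5 stromal and endothelial genes summed to 2424, 2533 and 4146, mostly Pecam1 (2098, 2304 and 4053), with Col1a1 at 294, 22 and 17 and Cxcl12 at 29, 187 and 66. The part of cycling cells or of other cell types in the ribosomal protein values was not tested.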

How the data were processed

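One table of normalized counts per gene covers 3 libraries, GFP+ HSCs, GFP- HSCs and MPPs. The values were deposited by the authors as whole numbers after scaling between libraries and were treated as a score, since the reads behind them cannot be recovered. STAR, DESeq2 and mm10 were used, per the submitters' processing notes, which name no role for them. The sources used here do not give versions, the annotation, the counting tool or the treatment of reads with several matches. RNA came from TRIzol and PicoPure extraction and SMART-seq v4 cDNA, per the labels' protocols, a chemistry that amplifies full-length cDNA by PCR and marks no strand, so reads of overlapping antisense genes cannot be told apart.

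Of 23420 rows, 27 with a date in place of a symbol were left out (0.212% of levels). The comparison took the 11951 genes whose mean reached 50, by log2 of (level + 5). Depth is unknown, so no counting interval was given, and single libraries allow no test. The genes, lists and thresholds were chosen with earlier results of these data known. Genes with values are, by rule, those with the 5 largest and 5 smallest ratios per comparison, the extremes of level per kilobase, genes under the filter, paralog pairs, the P stalk, Rpl5 and Rpl11, X-linked genes and the extremes of each list; others (Rps3, Rps19) were chosen after their values were seen. A few genes that enter the counts, sums and medians are not reported here by name. Length and unique words come from 1 principal transcript per gene in GENCODE M21, the shortest of the best supported; genes overlapping on 1 strand counted as 1 locus, and words were matched exactly on both strands. All 84 genes were found in RefSeq by symbol or synonym and in GENCODE. The ratio, median and count calculation was tested on simulated data with known shifts. Calculations ran in Python 3.11.15 with pandas 2.3.3, numpy 2.4.6 and statsmodels 0.14.6, and plots in matplotlib 3.10.9.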

Additional observations from a re-analysis of the deposited data

How the results depend on the processing

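The median of the 68 ribosomal protein genes stayed below 0 in all 3 comparisons under each of 14 alternatives, from -0.23 to -0.10 in GFP+ against GFP- HSCs, from -0.54 to -0.24 in GFP- HSCs against MPPs and from -0.78 to -0.36 in GFP+ HSCs against MPPs. The alternatives were other pseudocounts, minimum means and scalings, removal of trends on level, length and GC content, the mean in place of the median, and smaller sets of genes; the last 2 sets, genes with at least 50% unique words and genes whose mean reached 500, were chosen after seeing the data. No paired analysis was possible because each population has 1 library, and none could be left out.

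With the trend on length removed, the median in GFP- HSCs against MPPs was -0.25 and in GFP+ HSCs against MPPs -0.36; with length and GC content, -0.24 and -0.37. Genes at least 20% lower or 25% higher in GFP- HSCs against MPPs then numbered 32 either way, against 50. Rpl22 reversed under these settings, to 0.00566 and 0.0190 in GFP- HSCs against MPPs and to 0.00534 and 0.0293 in GFP+ HSCs against MPPs (the cause was not tested), and to 0.0198 and 0.0318 in GFP+ against GFP- HSCs, where Rpl35a turned to 0.0243 and 0.0335 and 51 and 52 genes were lower, against 58. With the trend on level removed, Rps12 reversed to -0.0836 in GFP+ HSCs against MPPs. Under that setting Rps27a, Rpl12 and Rpl21 also turned in this comparison, to -0.40, -0.30 and -0.39. In GFP- HSCs against MPPs it turned Rps12 to -0.52, Rpl12 to -0.38, Rpl21 to -0.088 and Rps23 to -0.69. Scaling to the same upper quartile gave -0.36 in GFP- HSCs against MPPs, with all genes shifted to 0.10, and all genes stood at 0.11 in GFP+ HSCs against MPPs.

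Genes at least 20% lower or 25% higher in GFP+ against GFP- HSCs were 13 and became 20 with a minimum mean of 10, 21 with no filter and 8 with a mean of at least 500, since the genes tested changed. Thresholds of 1.5-fold and 2-fold gave 1 and 0 there, 21 and 1 in GFP- HSCs against MPPs, and 2-fold gave 11 in GFP+ HSCs against MPPs. Among the 33 genes with at least 50% unique words, 30 were lower in each comparison, 29 and 31 were apart by that size in the comparisons with MPPs, and the median in GFP+ HSCs against MPPs was -0.78. The large minus small subunit difference in GFP- HSCs against MPPs became -0.0263 with a minimum mean of 10, -0.0257 with no filter and 0.19 among those 33 genes, and in GFP+ against GFP- HSCs -0.00981, -0.00903 and -0.0378, so its sign depends on which genes are kept. Of 96 ratios of single genes named, 16 changed sign under at least 1 setting. Unknown depth and repeated sequence limit all genes with low levels.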
